A study of Mus musculus with 3 samples.

Results

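The clustered histone genes were taken as the rows of both deposited tables whose gene name begins with Hist1h, Hist2h, Hist3h or Hist4h, which gave 63 of 36808 rows. By locus 51 lay on chromosome 13, 8 on chromosome 3, 3 on chromosome 11 and 1 on chromosome 6. By name 6 encode the linker histone H1, and the core histones H2A, H2B, H3 and H4 have 17, 17, 12 and 11 members, of which 2 are named as pseudogenes. Messenger RNA was sequenced from the mouse embryonic stem (ES) cell line D3, with (C3H/HeH x 101/H)F1 given as the strain of origin, in 3 libraries. These were wildtype ES cells at day 0, wildtype control embryoid bodies (EBs, balls of ES cells left to differentiate) at day 4, and EBs of the same day in which Brachyury, the mesoderm T-box factor encoded by T, had been knocked down. The second table names its control column nontarget, and the means of knockdown is not described in the labels. Each group was 1 library of a whole culture, so no test between conditions was possible, and fewer cells of a type cannot be told apart from less RNA per cell.

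Cells make most of their histone protein during S phase, from gene clusters whose transcripts carry no introns. These messages normally end in a short stem-loop in place of a poly(A) tail, and the stem-loop is bound by the protein SLBP, which takes part in their processing, translation and decay. Some clustered genes also make polyadenylated messages, mainly described in cells that have stopped dividing or are differentiating. A poly(A) library therefore holds the polyadenylated part of these transcripts together with whatever else was carried over, and the levels given here are no measure of total histone mRNA.

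The stem-loop, a hairpin of 16 bases with a stem of 6 bases and a loop of 4, was searched in the GENCODE M21 transcript models of the 61 members that had one. It was found in 41 of them, and in 154 of all 21951 protein-coding genes (0.702%). The sequences below were chosen because they carry the types seen among the more abundant members. They are printed as DNA, 5′ to 3′, with the hairpin in capitals and 5 bases on either side.
Hist1h2ao: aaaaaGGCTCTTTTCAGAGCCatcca
Hist3h2ba: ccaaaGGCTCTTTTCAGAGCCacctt
Hist1h1c: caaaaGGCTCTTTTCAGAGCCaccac
Hist1h3i: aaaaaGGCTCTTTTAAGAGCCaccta
Hist1h4d: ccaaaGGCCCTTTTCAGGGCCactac
The form in Hist1h2ao, Hist3h2ba and Hist1h1c was the most frequent, in 24 of the 41 models. Hist1h3i, a row that GENCODE M21 names Hist1h3c, has another loop base, shared by 6 models, and the hairpin of Hist1h4d, with another stem, was found in 5 models, each of an H4 gene. Of the models with a stem-loop, 20 ended within 100 bases of it and 21 ran more than 100 bases past it. The model of Hist3h2ba ran 169 bases past the hairpin and had an AATAAA poly(A) signal 21 bases before its end. That of Hist1h1c ran 840 bases past it, with AATAAA 20 bases before the end, whereas that of Hist1h2ao stopped 31 bases after it. No hairpin was found in the other 20 models, which says only that these letters are not in those models.

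Promoters of the members, from 250 bases before to 50 bases after the RefSeq start, were available for 53 members as 54 sequences (RefSeq, GRCm38.p6). Searched on both strands, TATAAA, the element bound by TBP, was present in 59.3% of them and in 13.6% of 32851 promoters of all genes. CCAAT was present in 87.0% against 37.4%, in every H1, H2A, H2B and H3 promoter but in 3 of 10 H4 promoters. The octamer ATTTGCAT, which POU factors can bind, was present in 24.1% against 1.74%, in 7 of 16 H2A and 6 of 14 H2B promoters and in 0 of the others. The windows of neighbouring H2A and H2B genes on opposite strands can overlap, as for Hist1h2ad and Hist1h2bf. The same site can then be counted in both, so these shares count promoters and not separate sites. The following 4 show the chromosome 11 genes, which had the same direction in both comparisons, an H3 and an H4 promoter, with matches to any of these motifs in capitals on whichever strand they lay.
Hist3h2ba, chr11:58948661-58948960, + strand: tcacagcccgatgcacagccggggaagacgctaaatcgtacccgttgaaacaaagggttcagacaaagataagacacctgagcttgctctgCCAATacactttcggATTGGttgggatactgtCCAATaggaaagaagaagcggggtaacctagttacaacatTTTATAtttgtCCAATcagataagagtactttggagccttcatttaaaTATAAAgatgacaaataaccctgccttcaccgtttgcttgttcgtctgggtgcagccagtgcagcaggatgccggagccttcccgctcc
Hist3h2a, chr11:58954435-58954734, + strand: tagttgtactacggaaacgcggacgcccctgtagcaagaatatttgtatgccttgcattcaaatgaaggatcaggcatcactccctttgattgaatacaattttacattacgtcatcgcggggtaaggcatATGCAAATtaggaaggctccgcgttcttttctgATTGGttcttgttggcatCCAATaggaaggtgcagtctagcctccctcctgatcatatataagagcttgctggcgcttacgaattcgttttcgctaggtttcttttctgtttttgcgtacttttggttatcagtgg
Hist1h3h, chr13:21717378-21717677, + strand: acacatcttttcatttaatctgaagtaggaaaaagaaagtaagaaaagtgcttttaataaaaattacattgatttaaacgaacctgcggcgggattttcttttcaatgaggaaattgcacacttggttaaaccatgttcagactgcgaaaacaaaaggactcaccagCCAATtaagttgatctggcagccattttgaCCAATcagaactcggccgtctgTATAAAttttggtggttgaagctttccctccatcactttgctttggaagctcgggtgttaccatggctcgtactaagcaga
Hist1h4d, chr13:23581318-23581617, + strand: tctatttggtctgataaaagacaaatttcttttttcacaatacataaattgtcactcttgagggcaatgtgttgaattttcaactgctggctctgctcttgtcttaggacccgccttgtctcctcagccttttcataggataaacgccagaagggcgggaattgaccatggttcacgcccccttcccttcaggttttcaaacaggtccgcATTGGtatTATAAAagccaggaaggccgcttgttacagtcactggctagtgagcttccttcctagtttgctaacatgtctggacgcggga
The Hist3h2ba and Hist1h3h promoters have both that element and CCAAT boxes. The Hist3h2a promoter has the octamer on the reverse strand and CCAAT boxes, and no TATAAA in this window. That of Hist1h4d has TATAAA and 1 CCAAT box on the reverse strand. A match is a description of the sequence and not evidence of binding.

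The libraries were checked against marker genes. T was at 0.297 FPKM (fragments scaled for transcript length and library size) in ES cells, 254 in control EBs and 2.47 in knockdown EBs, and Pou5f1, a pluripotency factor gene, was at 1058, 390 and 361 FPKM. Between ES cells and control EBs all 6 ES cell markers were lower and all 6 primitive streak markers were higher, and 3 of the 6 streak markers were lower in knockdown EBs. There 2 of the 6 ES cell markers were higher, Zfp42 at 5.51 FPKM in the control and 28.5 in the knockdown library and Esrrb at 1.33 and 6.69. The 7 fibroblast markers summed to 2.91, 4.12 and 16.1 FPKM, with Col3a1 and Lum listed at 0 in every library and Dcn at 9.12 FPKM in knockdown EBs against 0.253 in control EBs. Summed over all genes, FPKM came to 563709 in ES cells, 773230 and 778303 in the 2 quantifications of control EBs, and 751086 in knockdown EBs. Read depth is unknown, since no counts were used here.

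Clustered histone genes were low in all 3 libraries. At least 1 FPKM was reached by 11 of the 63 members in ES cells and by 28 in control EBs and 28 in knockdown EBs, and 29 stayed under 1 FPKM in every library. The median member was at 0.482, 0.897 and 0.927 FPKM. The replication-independent histone genes, which are mostly made throughout the cell cycle from polyadenylated messages, summed over 14 genes to 1306 FPKM in ES cells, 1787 in control EBs and 1594 with the knockdown. The 63 clustered genes summed to 55.1, 159.6 and 165.2 FPKM. The 4 members that reached 5 FPKM in any library were Hist1h2af, Hist1h2ao, Hist3h2ba and Hist1h2bc, and 1 member, the testis H1 gene Hist1h1t, was listed at 0 in all of them. The plot of all members by library shows most of them below the line of 1 FPKM.

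**Figure D1:**
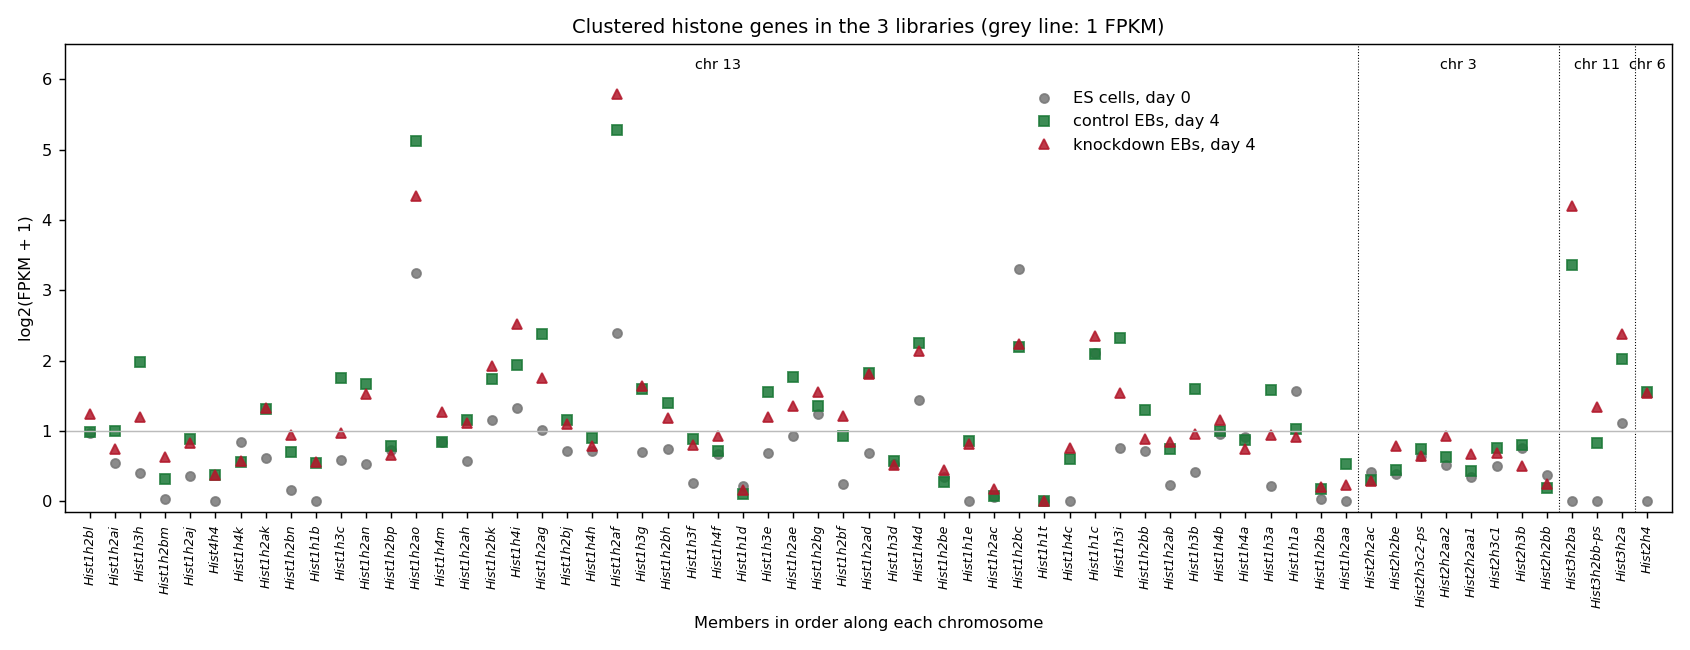
Level of each of the 63 clustered histone genes, as log2(FPKM + 1), in ES cells (circles), control EBs (squares) and knockdown EBs (triangles), with genes in order along each chromosome and 1 library per symbol. Hist1h2af, Hist1h2ao and Hist3h2ba stand above the rest in both EB libraries, at 37.8, 33.9 and 9.27 FPKM in control EBs.

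Control EBs were first set against ES cells. The summed level was 2.90 times as high in control EBs. It was 4.67 times as high for H2A (19.9 and 93.0 FPKM), 3.72 times for H3 (5.59 and 20.8), 1.77 times for H4 (7.89 and 13.97) and 1.61 times for H2B (16.3 and 26.2), but 1.04 times for H1 (5.45 and 5.65). The sum of the 13 H2B members on chromosome 13 was level, at 15.7 and 15.6 FPKM, but it includes Hist1h2bc, at 8.84 and 3.58. The members were not level one by one, and of all 17 H2B members 14 were higher by any amount and 3 lower. The 2 H2B members on chromosome 11 were listed at 0 in ES cells and summed to 10.1 FPKM in control EBs. The size rule called a member where log2(FPKM + 1) differed by 1 or more and either library reached 1 FPKM. By it, 12 members were higher and 1 was lower among the 28 that reached the floor. Over all genes compared, 15.8% were higher and 19.5% lower by that rule. A member can reach the floor through its higher library alone, so these 28 do not stand for all 63. Of the 63, 52 were at a higher FPKM in control EBs by any amount, 10 at a lower one and 1 was equal, and a higher FPKM was seen in 49.4% of all genes above 0 in either library and in 53.9% of those under 5 FPKM. The median log2 difference over the 63 was 0.52, against −0.009 over all genes above 0 in either library.

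The precision of a single member was low. The error implied by the authors' deposited table, the log2 ratio divided by the normal deviate of its two-sided p, had a median of 2.37 on the log2 scale over the 54 members above 0 in both libraries. The authors' deposited table gave a p under 0.05 to 2 of those 54, against 32.2% of all such genes, and those were Hist1h2af and Hist1h2ao. Members also share sequence, so their differences are not independent of each other.

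Both leading members encode core histone H2A. Hist1h2af lies on chromosome 13 (23625775 to 23626173 on mm9), and its FPKM was 4.25 in ES cells, 37.8 in control EBs and 54.5 with the knockdown. The first step was 8.91-fold, for which the authors' deposited table has p = 1.92e-05. Hist1h2ao (chromosome 13, 21902236 to 21902754) was at 8.49, 33.9 and 19.4 FPKM, also lowest in ES cells. Its first step was 3.999-fold, for which the authors' deposited table has p = 0.000305. Together they made up 23.1% of the summed FPKM of the 63 members in ES cells, 45.0% in control EBs and 44.7% in knockdown EBs. Without them, the summed level was 2.07 times as high in control EBs as in ES cells.

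These values are uncertain, because the transcripts are nearly identical to those of other genes. Of all 50-base windows in the Hist1h2af model, 94.0% also occur in another gene, and 93.5% of those of Hist1h2ao do. A row named Gm11276 (chromosome 13, 21924926 to 21925444) was listed at exactly the same 8.49 and 33.9 FPKM as Hist1h2ao, and at 19.4 FPKM in knockdown EBs. The median share over 61 members was 49.3%, and for H2A it was 78.9%. By type, the median was 60.4% for H3, 40.1% for H2B, 39.9% for H4 and 1.13% for H1. The sources used here do not say how reads were divided among copies. The plot of shared sequence against level sets Hist1h2af and Hist1h2ao apart from Hist3h2ba, of which 22.1% was shared.

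**Figure D2:**
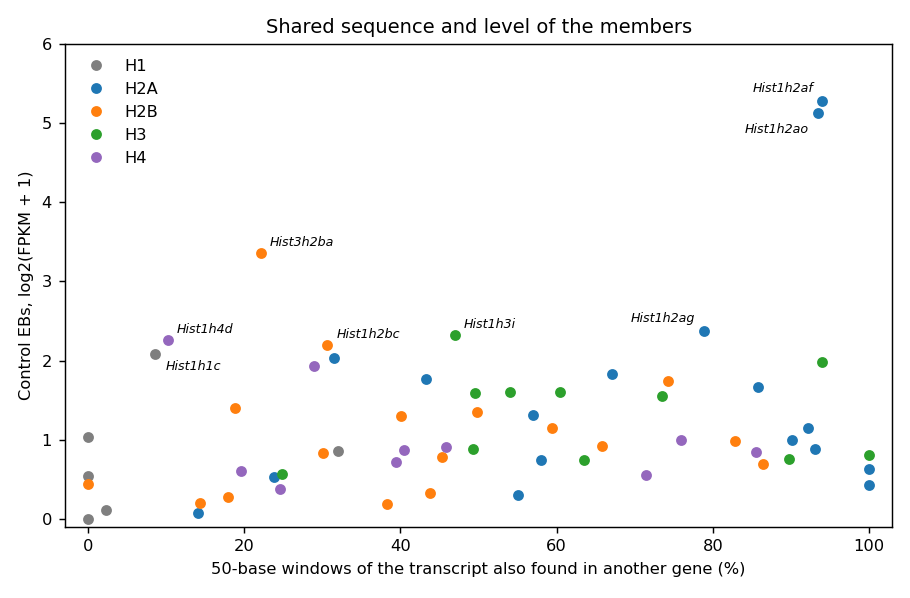
Share of 50-base windows of each member's transcript model that also occur in another gene (%, horizontal) against its level in control EBs as log2(FPKM + 1), for 61 members colored by histone type. Hist1h2af and Hist1h2ao lie at 94.0% and 93.5% shared, and Hist3h2ba at 22.1%.

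The other H2A genes past the size rule, Hist1h2ag, Hist1h2an and Hist1h2ad, lay lower. Hist1h2ag was at 1.03, 4.19 and 2.37 FPKM in ES cells, control EBs and knockdown EBs, Hist1h2an at 0.445, 2.19 and 1.89, and Hist1h2ad at 0.610, 2.54 and 2.50. All 3 were highest in control EBs. The 17 H2A members were at a higher FPKM in control EBs in 16 cases. So were 49.4% of all genes above 0 in either library and 53.9% of those under 5 FPKM. The H2A models shared a median of 78.9% of their windows with another gene, so these 16 directions are not independent.

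Histone H3, which with H4 forms the core tetramer of the nucleosome, had the most uniform direction. All 12 H3 members were at a higher FPKM in control EBs than in ES cells, and 5 of the 7 at the floor passed the size rule. No H3 member reached 1 FPKM in ES cells, so these 7 reached the floor through control EBs alone and could not be called lower. Over all genes at the floor 15.8% were higher by that rule, a share that cannot be set against these 7 directly. Of genes under 5 FPKM and above 0 in either library, 53.9% were higher by any amount. The H3 models shared a median of 60.4% of their windows with another gene, so these directions are not independent. In ES cells they ran from 0.161 to 0.691 FPKM, with a median of 0.478, and in control EBs from 0.486 to 3.996, with a median of 1.97, so the ranges overlap at their ends. Hist1h3i had 0.691 FPKM before and 3.996 after differentiation, Hist1h3h 0.327 and 2.97, and Hist1h3c 0.511 and 2.37. Hist1h3b was at 0.343 and 2.03 FPKM, and Hist1h3a at 0.161 and 2.003. No H3 member had a p under 0.05 in the authors' deposited table, where these 5 had p from 0.178 to 0.336. The 9 H3 genes on chromosome 13 summed to 3.91 and 18.7 FPKM (4.78 times as high), and the 3 on chromosome 3 to 1.68 and 2.12 (1.26 times).

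Among H2B genes, Hist3h2ba and Hist1h2bc had opposite directions. Hist3h2ba (chromosome 11, 58762413 to 58763032 on mm9), one of the 2 H2B rows of the small chromosome 11 cluster, was listed at 0 in ES cells, with 9.27 FPKM in the control and 17.3 in the knockdown library. Hist1h2bc (chromosome 13, 23776068 to 23784357) was the highest member in ES cells at 8.84 FPKM, and was at 3.58 in control EBs and 3.73 in knockdown EBs. It was the 1 member called lower, and the authors' deposited table has p = 0.149 for it. Its neighbour Hist1h2ac, which lies in the opposite direction 250 bases away, was at 0.0406, 0.0567 and 0.131 FPKM.

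The chromosome 11 genes were together at 1.16 FPKM in ES cells, 13.1 in control EBs and 23.0 in knockdown EBs. Hist3h2a was at 1.16, 3.09 and 4.18 FPKM, in a locus that spans more than the gene, and the pseudogene row Hist3h2bb-ps was listed at 0 in ES cells, with 0.785 and 1.54 FPKM in the EB libraries. All 3 were ordered ES cells, control EBs, knockdown EBs. For the first step of Hist3h2a the authors' deposited table has p = 0.286, and for the 3 knockdown steps p from 0.125 to 0.669. Hist3h2ba and Hist3h2bb-ps share sequence with each other, so their orders are not independent. The 8 genes on chromosome 3 summed to 3.33, 3.76 and 4.25 FPKM, and none of them reached 1 FPKM in any library. The row Hist2h4, named here after its values were seen, had no FPKM listed above 0 in ES cells and had 1.93 and 1.90 FPKM in the EB libraries, and its locus on chromosome 6 does not match its name.

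Between ES cells and control EBs the H1 sum differed least in FPKM as deposited, at 1.04 times. The H4 sum was 1.77 times as high in control EBs, above the 1.61 times of H2B. With FPKM totals scaled to be equal, the ratio was 0.757 for H1, 1.29 for H4 and 1.17 for H2B. Which type differed least therefore depends on the scaling. H1 binds the linker DNA between nucleosomes, and its 6 members were higher by any amount in 2 cases, lower in 3 and equal in 1. Hist1h1c, the highest of them, was at 3.31, 3.25 and 4.11 FPKM. Of the 11 H4 members 8 were higher by any amount. Over all genes above 0 in either library 49.4% were higher by any amount, and 53.9% of those under 5 FPKM. Of the 3 H4 members at the floor 1 passed the size rule, against 15.8% higher over all genes. That member was Hist2h4, listed at 0 in ES cells and with a locus that does not match its name. Hist1h4d was at 1.72, 3.77 and 3.39 FPKM and Hist1h4i at 1.503, 2.82 and 4.75. The plot of summed levels by type shows H1 nearly level across libraries in FPKM as deposited.

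**Figure D3:**
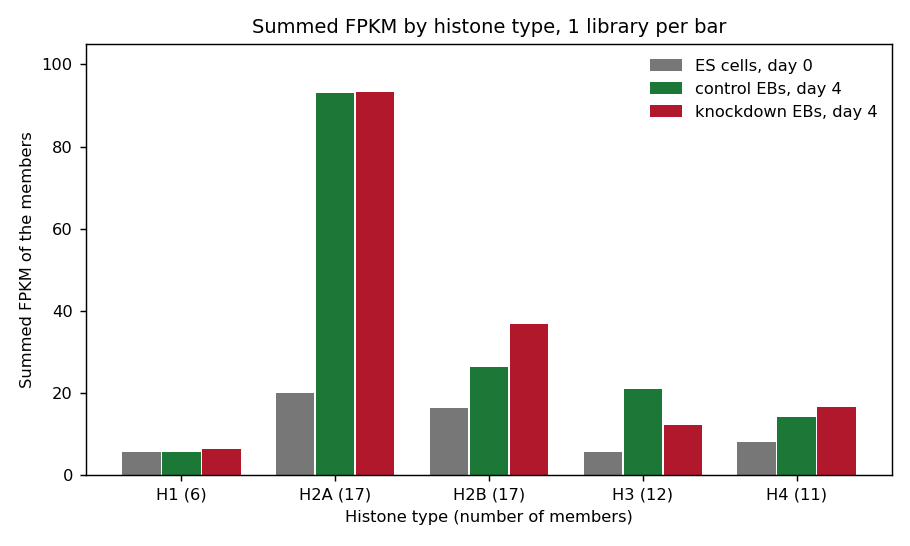
Summed FPKM of the members of each histone type (number of members in parentheses) in the 3 libraries, 1 library per bar and so without error bars. H2A is at 19.9, 93.0 and 93.3 FPKM, and H3 at 5.59, 20.8 and 12.2.

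H2A and H2B genes lie in divergent pairs that share a promoter region. Of 11 such pairs within 1000 bases, the H2A gene had the higher FPKM in 5 pairs in ES cells, in 8 in control EBs and in 6 in knockdown EBs. In the pair of Hist1h2ag and Hist1h2bj the H2A gene was at 1.03, 4.19 and 2.37 FPKM and the H2B gene at 0.644, 1.22 and 1.14. In that of Hist1h2an and Hist1h2bp the H2A gene was at 0.445, 2.19 and 1.89 and the H2B gene at 0.662, 0.720 and 0.574.

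By the 3′ end of their model, 6 of the 20 members that end near the stem-loop, 1 of the 21 that run past it and 3 of the 20 without one were higher in control EBs by the size rule. The floor was reached by 10, 9 and 7 of them, against 15.8% higher over all genes at the floor. Of 7 clustered genes described with polyadenylated transcripts, 6 were in the tables. Hist1h2bc, Hist3h2a and Hist1h1c are given above, Hist2h2be was at 0.308, 0.362 and 0.728 FPKM, Hist1h2be at 0.274, 0.216 and 0.358, and Hist2h3c1 at 0.418, 0.694 and 0.618. By gene ID the row Hist2h3c1 matched a model named Gm20634, with 89.7% of its windows shared. Its locus is also that of the row Hist2h2aa1, so its values may not be those of the named gene alone. RNAs without a poly(A) tail, a guide to carry-over, were in the tables for 11 of 16 listed genes and summed to 38.6 FPKM in ES cells, 67.9 in control EBs and 72.5 in knockdown EBs. Among them Snora73b was at 7.14, 31.3 and 23.9 FPKM, Snora73a at 5.45, 17.7 and 17.9, and Rny3 at 12.1 FPKM in ES cells but listed at 0 in both EB libraries. Their part in the differences of the histone genes was not tested.

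The second comparison asked how the clustered genes differed when Brachyury was knocked down. By the size rule 0 of the 34 members that reached the floor were higher and 0 were lower, against 5.31% and 2.53% of all genes. The summed level was 1.03 times that of control EBs, or 0.907 times without Hist1h2af. The median log2 difference was −0.01, against 0.057 over all genes above 0 in either library. Of the 63, 30 were at a higher FPKM by any amount, 32 at a lower one and 1 was equal. A higher FPKM was seen in 59.3% of all genes above 0 in either library and in 63.5% of those under 5 FPKM. The authors' deposited table gave a p under 0.05 to 1 member, against 10.5% of all genes above 0 in both libraries. That member was Hist1h2ao, 1.75-fold lower at p = 0.0486 in the authors' deposited table.

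Directions were counted for each type. Among all genes above 0 in either library 59.3% were at a higher FPKM, and 63.5% of those under 5 FPKM. Of 12 H3 members 11 were lower by any amount, and their sum was 0.589 times that of control EBs (20.8 and 12.2 FPKM). Hist1h3h had 2.97 FPKM in the control and 1.30 in the knockdown library, Hist1h3c 2.37 and 0.959, and Hist1h3i 3.996 and 1.91. Hist1h3b had 2.03 and 0.941 FPKM, and Hist1h3a 2.003 and 0.9304. Of 17 H2B members 13 were higher by any amount, with a sum 1.41 times that of control EBs (26.1 and 36.8 FPKM), and Hist3h2ba made up most of that difference. H2A, H4 and H1 sums were 1.0001, 1.18 and 1.12 times those of control EBs, and the H2A sum was 0.6996 times without Hist1h2af. These directions were noted after the values were seen, the H3 genes share much of their sequence, and the median implied error was 1.97 on the log2 scale. Both comparisons use the control library, so its errors enter both, and in opposite directions. The fibroblast marker Dcn was higher in the knockdown library, as given above, and its part in these values was not tested.

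**Figure D4:**
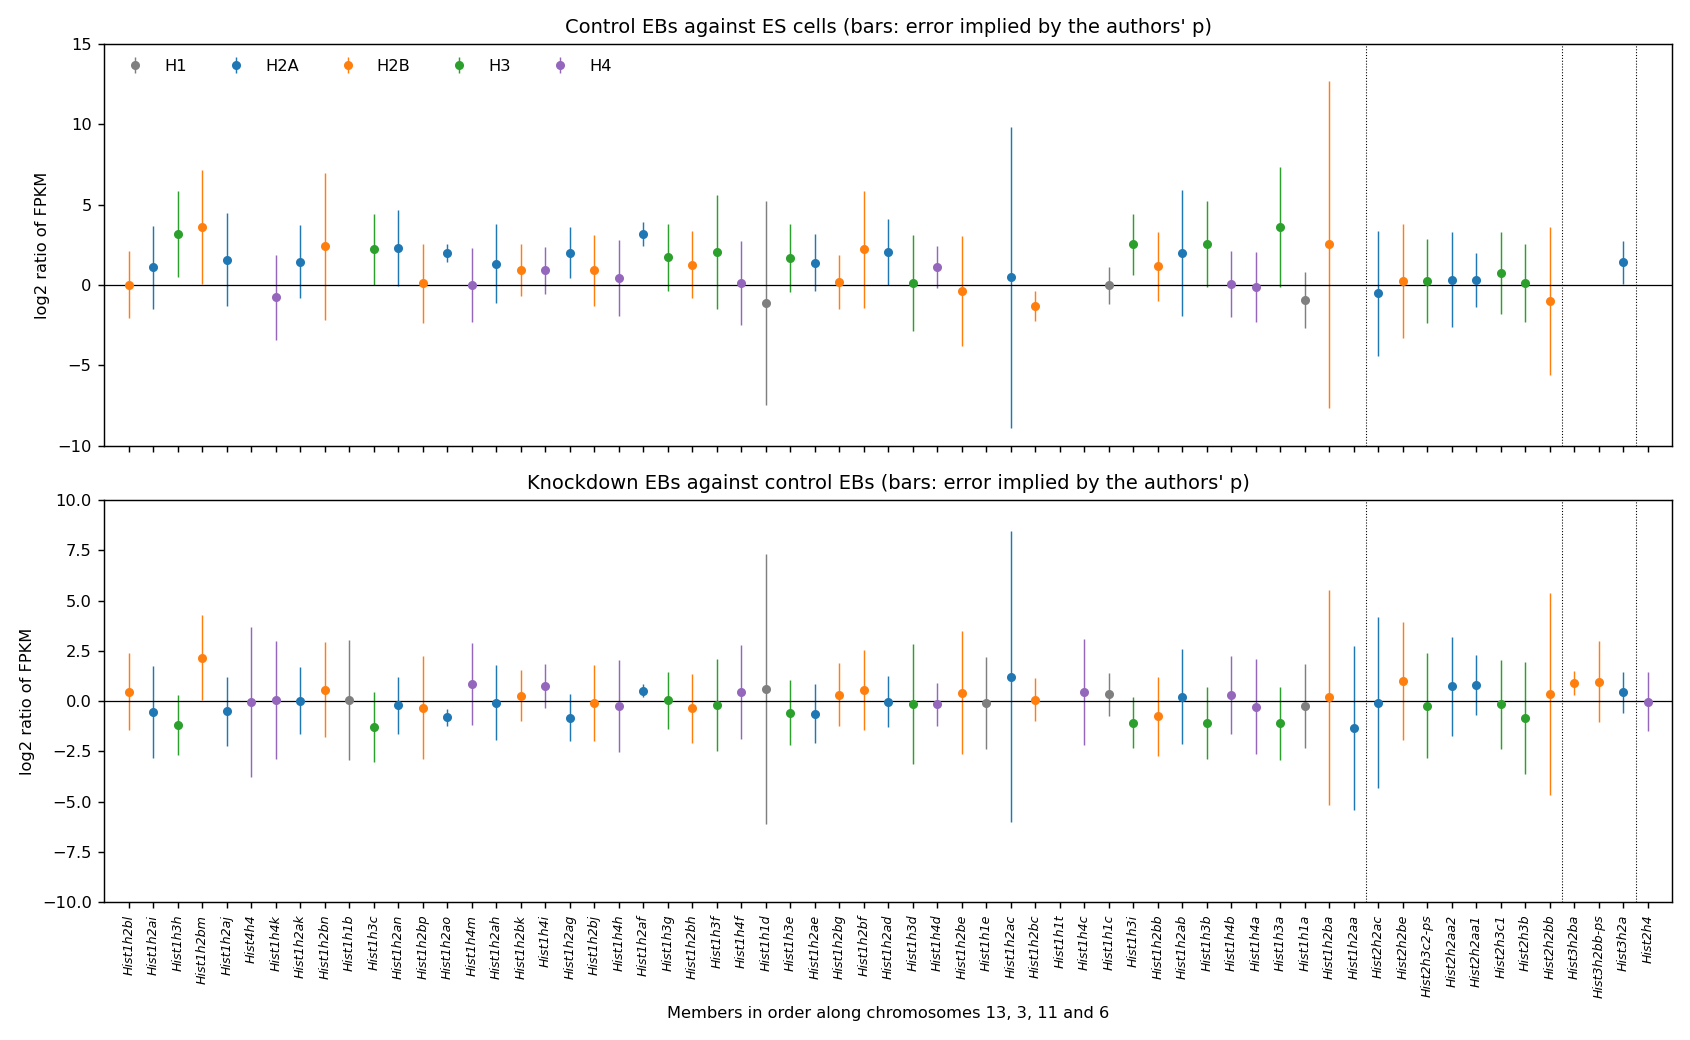
Log2 ratio of FPKM for each member in control EBs against ES cells (top) and in knockdown against control EBs (bottom), for members above 0 in both libraries, colored by histone type. Bars are the error implied by the authors' p, with a median of 2.37 at the top and 1.97 at the bottom, and most cross 0.

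Genes around histone supply were described from lists. Their counts in control EBs against ES cells stand against 15.8% higher and 19.5% lower over all genes at the floor. Of 14 replication-independent histone genes 11 reached the floor, and control EBs had 3 higher and 0 lower than ES cells. H3f3a, which encodes the replacement histone H3.3, was at 83.8 and 399 FPKM, the linker histone gene H1f0 at 90.8 and 217, and the macroH2A gene H2afy2 at 4.82 and 11.1. Of 19 genes of histone gene transcription and 3′ end processing 1 was higher and 3 were lower. Srrt had 128 FPKM before and 30.2 after differentiation, Coil, which encodes a Cajal body protein, had 30.9 and 12.3, and Lsm10, a subunit of the U7 particle, had 14.6 and 30.5. Pou2f1, which encodes an octamer-binding factor, was at 35.9 and 13.4 FPKM, but the second table lists it at 0 for the same control library, so its call is uncertain. Slbp was at 53.3 and 79.8 FPKM and Npat, a coactivator of histone genes, at 9.99 and 14.7, both chosen after their values were seen and both inside the size rule.

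Of 18 histone chaperone genes 16 reached the floor, and 4 were lower and 0 higher in control EBs, a share of lower genes near that over all genes. Hat1, within the size rule at 169 and 127 FPKM, is likewise listed at 0 for the control library in the second table. Daxx, a chaperone of H3.3, was at 45.3 and 12.3 FPKM, Chaf1a, a subunit of chromatin assembly factor 1, at 58.7 and 19.2, Hira, another H3.3 chaperone, at 50.5 and 18.4, and Asf1b, a carrier of H3 and H4, at 34.0 and 15.4. Of 28 S phase genes 27 reached the floor, and 2 were higher and 6 lower, also near the share over all genes. The gene under the floor, Lig1, is listed at 0 in ES cells and control EBs. The second table has it at 89.8 FPKM for the same control library, so that 0 is no sign of absence. Ccne1, which encodes cyclin E1, was at 165 and 34.2 FPKM, E2f1 at 22.9 and 7.75, the licensing factor gene Cdt1 at 68.3 and 26.7 and the helicase subunit gene Mcm2 at 163 and 69.8. In knockdown against control EBs 0 genes of these 4 lists were past the size rule, against 5.31% higher and 2.53% lower over all genes at the floor. That floor was reached there by 11 replication-independent histone, 18 transcription and processing, 15 chaperone and 28 S phase genes. Of the 11 RNAs without a poly(A) tail 7 reached it. Among these 1, Rnu11, was higher, listed at 0 in the control library and at 4.57 FPKM in the other.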

How the data were processed

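Values were the FPKM deposited in 2 tables of 36808 rows, 1 for ES cells and control EBs and 1 for control and knockdown EBs, per the file headers. In FPKM the authors had divided each gene's fragments by its length and by the size of the library. The deposited tables also hold an unadjusted p-value by the authors, which is 0 where 1 library alone is at 0 and was used there in 1 alternative only. Bowtie, Cuffdiff and the build mm9 are named, per the submitters' processing notes, without versions. Annotation and depth are not given here. Per the labels' protocols, the RNA came from TRIzol LS extraction and the Illumina mRNA-seq kit was used.

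The members and the gene lists were chosen with earlier results of these data known. Short RNAs and nameless rows were left out of the background and rows of 1 symbol were summed, with 32206 symbols kept. Genes at 1 FPKM or more in either library were compared by log2(FPKM + 1), and a difference of at least 1 was called, with no test, since there was 1 library per group. That scale understates the change of low genes. Ratios in the text are of FPKM as such. Named members reached 5 FPKM, or passed the size rule and reached 2 FPKM, and Hist1h1c, Hist1h4d, Hist1h4i, Hist1h2ac, the chromosome 11 and paired genes and the members of the polyadenylated list are named beside these. From each other list up to 4 genes of greatest difference are named. A listed 0 may stand for a failed estimate. Control values in both tables were equal for 54 of the 63 members and differed at most 1.14-fold on FPKM + 1. Loci are on mm9 with 1 added to the start. Of the members, 52 were matched to GENCODE M21 by gene ID and 9 by symbol and gene order, 8 matched rows have another symbol there, and Hist1h3c and Hist2h4 had no model. Shared windows of 50 bases were counted on either strand over all M21 transcripts. The code of the size rule was run on simulated libraries with planted changes, which checks the code and not the rule. Python 3.11.15, pandas 2.3.3, numpy 2.4.6, scipy 1.17.1 and matplotlib 3.10.9 were used.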

Additional observations from a re-analysis of the deposited data

How the results depend on the processing

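Over 26 results, 117 of 128 values under another setting stayed within 1.5 times the value reported, or its equal on the log2 scale. Of the medians and ratios, 8 crossed to the other side of no difference, each from a reported value within 2-fold of it. With equal FPKM totals the ratio of control EBs to ES cells went from 1.04 to 0.757 for H1 and from 1.13 to 0.824 for chromosome 3. In knockdown against control EBs, the ratio over all members went from 1.03 to 0.907 without Hist1h2af and to 0.9995 with the median ratio scaled, and that of H2A from 1.0001 to 0.6996, to 0.967 and, without Hist1h2af and Hist1h2ao, to 0.904. The knockdown median went from −0.01 to 0.52 with a floor of 5 FPKM. In control EBs against ES cells, the count of 12 higher members became 21 with a pseudocount of 0.1, 3 with a floor of 5 FPKM, 3 with a 3-fold rule and 4 by the authors' p in their deposited table, of which Hist3h2ba and Hist2h4 are listed at 0 in ES cells, where that p is 0. The 1 lower member became 0 with the 3-fold rule and 0 by the authors' p. The median log2 difference of 0.52 became 2.38 with a floor of 5 FPKM, where 4 members are left. In knockdown against control EBs, the 0 lower members became 5 with a pseudocount of 0.1 and 1 by the authors' p. Without Hist1h2af and Hist1h2ao, a setting chosen after seeing the data, the ratio of control EBs to ES cells became 2.96 for summed H2A and 1.82 for chromosome 13. Equal FPKM totals, rows named Hist only in GENCODE M21 and members above 0 in both libraries were also chosen after seeing the data. With equal totals, the summed ratio of control EBs to ES cells was 2.11 over all members. By type it was 3.41 for H2A, 2.71 for H3, 1.29 for H4 and 1.17 for H2B. No paired analysis was possible because each group was 1 library, and for the same reason no replicate could be left out. The unknown depth and the shared sequence limit all single values.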
